A study of Mus musculus with 6 samples.

Results

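The genes described here are the cell cycle and proliferation genes of regulatory T cells (Treg), compared between HDAC10-/- and WT Treg. The list holds 41 genes, fixed by name: 22 mitotic genes, 10 genes of S phase, 5 genes of G1/S control, and 4 D cyclins and CDK inhibitors. A gene was read from a probe set, the group of short oligonucleotides for 1 transcript, annotated to that gene symbol alone, and from the brightest such probe set where there were several. This gave values for 39 of the 41 genes, among 22180 genes measured in the same way. Ccnb1 and Ccne2 had no probe set of their own in the annotation used here. RNA came from CD4+CD25+ Treg, which were separated on magnetic beads out of the spleen and peripheral lymph nodes of female mice between 8 and 12 weeks old. Each genotype was represented by 3 independent samples, with 1 GeneChip Mouse Gene 2.0 ST array per sample. HDAC10-/- mice carry a knockout allele of HDAC10, a class IIb histone deacetylase (strain B6N(Cg)-Hdac10tm1.1(KOMP)Mbp/J). The deletion is not limited to Treg, so that other cells of these mice lack HDAC10 too. Both genotypes are labelled C57BL/6, the substrain of the WT mice is not stated, and no treatment is described for either.

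A dividing cell copies its DNA in S phase and separates the copies in mitosis. D cyclins and E cyclins with their kinases release E2F transcription factors, which switch on genes for nucleotides and for the replication machinery. A later wave of genes for kinases, motors and kinetochore proteins follows in G2 and mitosis under the DREAM and MuvB complexes. In the spleen and lymph nodes most T cells rest, whereas a part of the Treg pool divides continuously in response to self antigen and interleukin 2.

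Before the comparison, the arrays were checked against their labels. Hdac10 had log2 signals of 6.11 to 6.22 in HDAC10-/- Treg and 8.95 to 9.30 in WT Treg. Foxp3, the defining Treg transcription factor, had 12.66, 12.53 and 12.53 in HDAC10-/- Treg and 12.50, 12.58 and 12.54 in WT Treg. HDAC10-/- replicate 1 stood apart, with a correlation of at most 0.9953 with the other HDAC10-/- arrays, which had 0.9968 with each other. Array medians lay between 6.18 and 6.24, and the median log2 fold change over all probe sets was 0.00. P-values are two-sided and from limma, and those called adjusted were adjusted over 34472 probe sets by the Benjamini-Hochberg method. With 3 arrays per genotype, their number limits the precision.

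Mitotic genes were higher in HDAC10-/- Treg as a group, by small steps. All 21 measured mitotic genes had a log2 fold change above 0, from 0.13 to 0.45, with a median of 0.27, or 1.20-fold. At an adjusted p under 0.1, the false discovery rate of the methods, 2 of the 21 rose and none fell. Among all probe sets 1.25% rose and 0.757% fell at this threshold. At an unadjusted p under 0.05, 16 of the 21 were higher and none was lower, against 7.73% of probe sets higher and 6.95% lower (7.07% higher when each gene was counted once). For 17 of the 21, every HDAC10-/- array lay above every WT array, which held for 9.89% of all probe sets. The 21 genes were read from the same 6 arrays and tended to move together between arrays. They are therefore not separate observations, and the counts were not tested as a set. No member passed the 1.5-fold minimum of the methods together with the adjusted p, against 0.424% of probe sets that rose by this rule. In a mixed population such as this one, a larger share of dividing cells and more transcript per cell cannot be told apart.

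**Figure D1:**
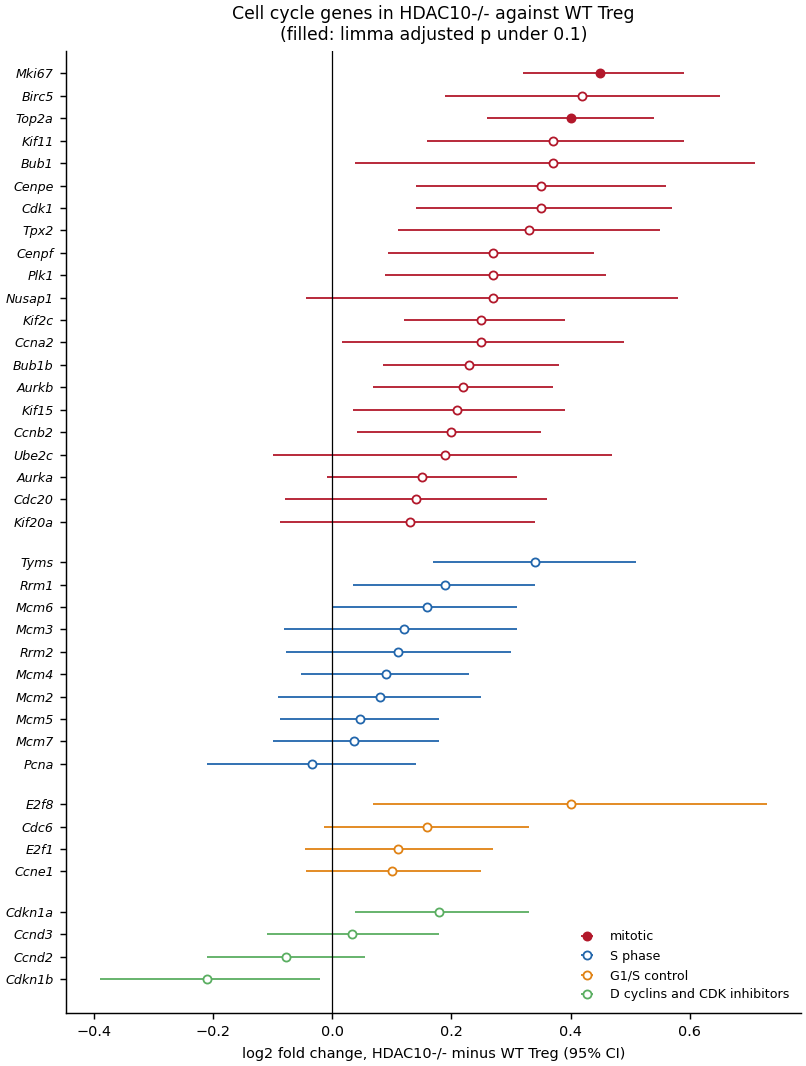
The log2 fold change (HDAC10-/- minus WT, x axis) of the 39 measured genes by role, with 95% confidence intervals of limma's test and n = 3 arrays per genotype; filled points have an adjusted p under 0.1. All 21 mitotic genes lie right of 0, and only Mki67 and Top2a are filled.

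The member with the smallest p-value was Mki67, which encodes Ki-67, the protein that coats mitotic chromosomes and is the standard marker of cycling cells. It had log2 signals of 11.08, 11.00 and 11.02 in HDAC10-/- Treg and 10.59, 10.54 and 10.61 in WT Treg. The groups were far apart for their spread, as the lowest HDAC10-/- array was well above the highest WT array. Mki67 rose 1.37-fold, with a 95% confidence interval of 1.25 to 1.50. Its log2 fold change was 0.45 with a standard error of 0.057 (adjusted p = 0.0230). Top2a, the topoisomerase that disentangles sister chromosomes, had 10.05, 9.94 and 10.02 in HDAC10-/- Treg and 9.62, 9.58 and 9.61 in WT Treg. It rose 1.32-fold (interval 1.20 to 1.45), by 0.40 on the log2 scale with a standard error of 0.058 (adjusted p = 0.0356). Again no array of one genotype reached the range of the other. Mki67 no longer passed when WT replicate 1 was left out (adjusted p = 0.101) or a replicate block was added (adjusted p = 0.104). Top2a no longer passed with the block (adjusted p = 0.127), nor when HDAC10-/- replicate 3 or any 1 of the WT replicates was left out (adjusted p = 0.126 to 0.142).

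The next mitotic genes by p-value did not pass, although their groups did not overlap either. Kif2c, a kinesin that shortens microtubules at the centromere, had 8.00, 7.98 and 7.91 in HDAC10-/- Treg and 7.72, 7.72 and 7.69 in WT Treg (log2 fold change 0.25, standard error 0.056, adjusted p = 0.109). Birc5 encodes survivin, a subunit of the chromosomal passenger complex. It had 7.57, 7.53 and 7.59 in HDAC10-/- Treg and 7.31, 7.18 and 6.94 in WT Treg (log2 fold change 0.42, standard error 0.097, adjusted p = 0.118). Here the WT arrays were more spread than the HDAC10-/- arrays. With an intensity trend and the robust option, 15 of the 39 genes rose, 13 of them mitotic, against 2.52% of probe sets. On the probe sets above the median signal, 15 rose as well, 13 of them mitotic, against 5.36%.

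The other mitotic genes are given by role. Among the kinases, Cdk1, which drives entry into mitosis, had a log2 fold change of 0.35, the polo-like kinase Plk1 0.27, and the Aurora kinases Aurkb and Aurka 0.22 and 0.15. The checkpoint kinase Bub1 had 0.37 and its relative Bub1b, which encodes BubR1, 0.23. Cyclin A2 (Ccna2) had 0.25 and cyclin B2 (Ccnb2) 0.20. Among the motors, Kif11, which pushes the spindle poles apart, had 0.37, the kinetochore kinesin Cenpe 0.35, and Kif15, which also acts on spindle poles, 0.21. The spindle assembly factors Tpx2 and Nusap1 had 0.33 and 0.27, and the kinetochore protein gene Cenpf 0.27. Ube2c and Cdc20, which serve the anaphase-promoting complex, had 0.19 and 0.14. The cytokinesis motor Kif20a had the smallest difference, with 9.10, 8.91 and 8.87 in HDAC10-/- Treg and 8.90, 8.69 and 8.91 in WT Treg and overlapping groups (log2 fold change 0.13, standard error 0.091, adjusted p = 0.581). None of the genes in this paragraph passed the test (adjusted p = 0.141 to 0.581).

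HDAC10-/- replicate 1 had the highest signal of all 6 arrays for 17 of the 21 mitotic genes. The widest gap to the next array among mitotic genes was that of Bub1, named after its values were seen, with 9.25, 8.70 and 8.74 in HDAC10-/- Treg and 8.56, 8.48 and 8.53 in WT Treg. Without that array the mitotic median was 0.21, Mki67 and Top2a were still called, and 14 of the 21 were higher at an unadjusted p under 0.05. Leaving out that array lowered the log2 fold change to 0.053 in Ube2c, 0.12 in Nusap1, 0.20 in Bub1, 0.15 in Ccna2 and 0.057 in Kif20a. On the WT side replicate 2 was the lowest WT array for 17 of the 21, and without it Cdc20 had 0.048 and Kif20a 0.055. HDAC10-/- replicate 1 was highest of the 6 for 3 of the 10 S phase genes. Without WT replicate 3 the members higher at an unadjusted p under 0.05 numbered 13 in place of 20 of 39. The share of all probe sets was not computed with an array left out, so these counts cannot be read against it.

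**Figure D2:**
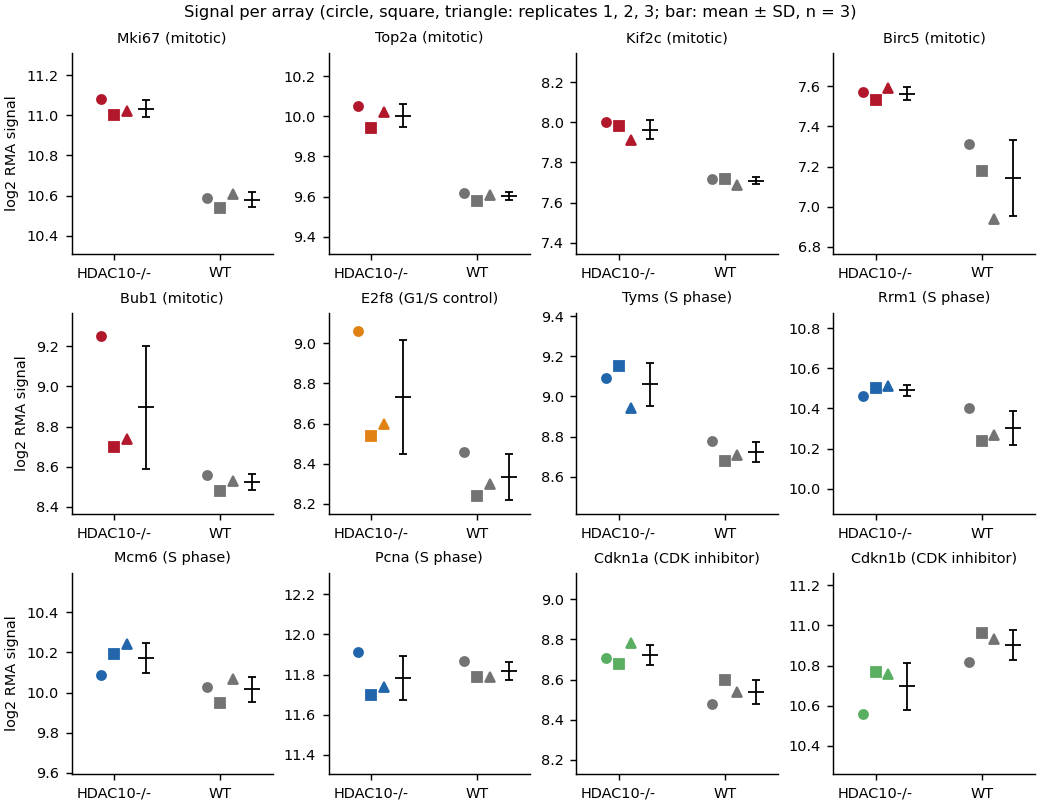
The log2 signal (y axis, each panel spanning 1 log2 unit) of 12 members in each array, HDAC10-/- left of WT, with the mean and SD of 3 arrays. The groups overlap in Pcna alone, and of the others only Cdkn1b is lower in HDAC10-/- Treg. Bub1 and E2f8 have HDAC10-/- replicate 1 far above replicates 2 and 3.

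S phase genes had smaller differences. Of the 10, none passed an adjusted p under 0.1, and 2 were higher and none lower at an unadjusted p under 0.05, beside 7.73% and 6.95% of all probe sets. Their median log2 fold change was 0.10, or 1.07-fold, with a range of -0.033 to 0.34. Of the 10 S phase genes, 9 had a log2 fold change above 0. For 4 of the 10, every HDAC10-/- array lay above every WT array, which held for 9.89% of all probe sets. The median was 0.048 without WT replicate 2, and the number higher at the unadjusted threshold was 1 to 4 when 1 array was left out. No share of all probe sets was computed for these fits with an array left out. The highest was Tyms, thymidylate synthase, which makes the thymidine nucleotide for DNA. It had 9.09, 9.15 and 8.94 in HDAC10-/- Treg and 8.78, 8.68 and 8.71 in WT Treg, without overlap (0.34 on the log2 scale, standard error 0.073, adjusted p = 0.105). Rrm1, the large subunit of ribonucleotide reductase, had 10.46, 10.50 and 10.51 in HDAC10-/- Treg and 10.40, 10.24 and 10.27 in WT Treg (0.19, standard error 0.064, adjusted p = 0.254). Its partner Rrm2 had 0.11 (adjusted p = 0.585), and 0.035 without WT replicate 2. Tyms and Rrm1 were the pair that was higher at the unadjusted threshold.

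The replicative helicase, a ring of MCM proteins that unwinds DNA, accounts for 6 of the S phase genes. Mcm6 had 10.09, 10.19 and 10.24 in HDAC10-/- Treg and 10.03, 9.95 and 10.07 in WT Treg (log2 fold change 0.16, standard error 0.067, adjusted p = 0.340). Mcm4 had 11.01, 10.87 and 10.91 in HDAC10-/- Treg and 10.82, 10.84 and 10.86 in WT Treg (0.090, standard error 0.061, adjusted p = 0.555). In both genes the HDAC10-/- arrays lay above the WT arrays by a margin smaller than the spread within HDAC10-/- Treg. Mcm3, Mcm2, Mcm5 and Mcm7 had 0.12, 0.080, 0.047 and 0.037, with overlapping groups. These small values moved by over 1.5 times with single arrays, and without WT replicate 2 they were 0.062, 0.027, 0.017 and 0.0067. Mcm4 had 0.050 without HDAC10-/- replicate 1. Pcna encodes the sliding clamp of DNA polymerase. It had 11.91, 11.70 and 11.74 in HDAC10-/- Treg and 11.87, 11.79 and 11.79 in WT Treg (-0.033, 95% confidence interval -0.21 to 0.14, adjusted p = 0.876), so that HDAC10-/- arrays were both the highest and the lowest of the 6. Its value lay between -0.097 and 0.0083 when 1 array was left out.

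The mean shift over each group shows the difference between mitosis and S phase by array. Relative to the WT mean, the mitotic genes averaged 0.39, 0.21 and 0.23 on the log2 scale in HDAC10-/- replicates 1, 2 and 3, and 0.059, -0.068 and 0.0084 in the WT replicates. The S phase genes averaged 0.10, 0.13 and 0.10 in the HDAC10-/- replicates, and 0.056, -0.069 and 0.012 in the WT replicates. Mitotic minus S phase was thus 0.29, 0.079 and 0.13 in the HDAC10-/- arrays and between -0.0039 and 0.0030 in the WT arrays. In the WT arrays both groups went up and down together, whereas HDAC10-/- replicate 1 was high in mitotic genes and not in S phase genes. This difference is given as a description and was not tested.

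Of the 4 measured genes of G1/S control none passed the test. E2f8, an atypical E2F that represses S phase genes late in the cycle, had 9.06, 8.54 and 8.60 in HDAC10-/- Treg and 8.46, 8.24 and 8.30 in WT Treg (0.40 on the log2 scale, standard error 0.14, adjusted p = 0.264). The groups did not overlap, and HDAC10-/- replicate 1 stood far above the other arrays. Without it E2f8 had 0.24 and E2f1 0.070. E2f1, the activator E2F, had 8.50, 8.33 and 8.43 in HDAC10-/- Treg and 8.29, 8.36 and 8.28 in WT Treg (0.11, standard error 0.066, adjusted p = 0.50). The origin licensing gene Cdc6 had 0.16 (adjusted p = 0.375). Ccne1, cyclin E1, which starts S phase with CDK2, had 8.44, 8.53 and 8.49 in HDAC10-/- Treg and 8.40, 8.31 and 8.44 in WT Treg (0.10, adjusted p = 0.501). In E2f1, Cdc6 and Ccne1 the groups overlapped or touched.

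The genes that set the entry into the cycle showed differences in both directions, none of which passed the test. Cdkn1b, which encodes the CDK inhibitor p27 of resting lymphocytes, was the only member lower at an unadjusted p under 0.05. It had 10.56, 10.77 and 10.76 in HDAC10-/- Treg and 10.82, 10.96 and 10.93 in WT Treg (-0.21 on the log2 scale, standard error 0.079, adjusted p = 0.295). It missed that threshold when any 1 of HDAC10-/- replicate 1 and WT replicates 2 and 3 was left out. Cdkn1a encodes the related inhibitor p21, a p53 target. It had 8.71, 8.68 and 8.78 in HDAC10-/- Treg and 8.48, 8.60 and 8.54 in WT Treg (0.18, standard error 0.062, adjusted p = 0.246). The groups were separate in both genes, with Cdkn1b lower and Cdkn1a higher in every HDAC10-/- array. Ccnd2, the main D cyclin of T cells after stimulation, had 11.84, 11.90 and 11.92 in HDAC10-/- Treg and 11.99, 11.93 and 11.97 in WT Treg (-0.077, standard error 0.056, adjusted p = 0.589). Ccnd3 had 11.09, 11.20 and 11.20 in HDAC10-/- Treg and 11.08, 11.16 and 11.15 in WT Treg (0.033, standard error 0.062, adjusted p = 0.850), and its value lay between 0.0083 and 0.070 when 1 array was left out. Over all members, groups were apart with HDAC10-/- higher in 23 of 39, against 9.89% of probe sets. They were apart with HDAC10-/- lower in Cdkn1b and Ccnd2 alone, against 10.9% of probe sets.

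The promoters of the members were also read for elements that textbook mitotic and S phase promoters carry. Promoters are from RefSeq (GRCm38.p6) and span 250 bases before to 50 after the start of transcription, and 33 of the 39 genes matched an entry. Each of 3 elements was searched on both strands: the cell cycle homology region (CHR, TTTGAA or TTCAAA), which MuvB binds, the NF-Y box (CCAAT or ATTGG), and E2F sites (TTCCCGC or TTGGCGC, with reverse complements GCGGGAA and GCGCCAA). The NF-Y letters ATTGG and the E2F letters TTGGCGC can overlap. The promoters below belong to the called genes Mki67 (chr7:135716330-135716629, minus strand) and Top2a (chr11:99024140-99024439, minus strand), and to the members next by p-value, Kif2c (chr4:117178723-117179022, minus strand) and Tyms (chr5:30073576-30073875, minus strand). Capitals mark matches to the searched letters, and the first 3 are mitotic genes while the last is an S phase gene.
Mki67: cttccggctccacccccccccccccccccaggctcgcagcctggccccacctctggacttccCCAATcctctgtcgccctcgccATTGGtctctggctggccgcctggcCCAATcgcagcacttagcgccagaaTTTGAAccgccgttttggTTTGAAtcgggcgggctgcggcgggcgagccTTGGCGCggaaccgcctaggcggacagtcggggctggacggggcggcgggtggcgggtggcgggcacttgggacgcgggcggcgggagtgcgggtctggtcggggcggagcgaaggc
Top2a: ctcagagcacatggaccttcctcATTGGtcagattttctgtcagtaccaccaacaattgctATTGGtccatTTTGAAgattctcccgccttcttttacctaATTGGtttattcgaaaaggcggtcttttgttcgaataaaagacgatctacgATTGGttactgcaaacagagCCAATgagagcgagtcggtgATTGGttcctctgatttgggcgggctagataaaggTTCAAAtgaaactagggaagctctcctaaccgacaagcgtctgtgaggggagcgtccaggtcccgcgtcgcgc
Kif2c: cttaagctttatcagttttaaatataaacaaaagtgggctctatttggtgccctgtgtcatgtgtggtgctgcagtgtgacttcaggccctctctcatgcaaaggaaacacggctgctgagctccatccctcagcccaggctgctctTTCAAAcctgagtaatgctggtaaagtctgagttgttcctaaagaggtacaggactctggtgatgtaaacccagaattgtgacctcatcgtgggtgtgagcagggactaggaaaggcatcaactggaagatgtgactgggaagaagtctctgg
Tyms: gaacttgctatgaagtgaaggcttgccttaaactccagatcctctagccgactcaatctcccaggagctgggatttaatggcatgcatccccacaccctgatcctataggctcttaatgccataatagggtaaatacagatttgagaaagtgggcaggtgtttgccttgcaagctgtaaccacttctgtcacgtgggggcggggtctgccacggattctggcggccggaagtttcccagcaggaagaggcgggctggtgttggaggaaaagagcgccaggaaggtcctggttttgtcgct

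The Mki67 promoter held 2 CHR, 3 NF-Y and 1 E2F matches, and that of Top2a 2 CHR and 6 NF-Y matches. The Kif2c promoter held 1 CHR match, and that of Tyms had no match to these letters. Of 17 mitotic promoters, 13 (76.5%) had a CHR match, against 1 of 10 S phase promoters (from 9 genes) and 39 of 64 promoters of other mitotic genes (60.9%), with 17.9% among all 32851 promoters. An NF-Y match was in 13 of the 17 mitotic and 9 of the 10 S phase promoters, against 37.4% of all. An E2F match was in 3 of the 17 mitotic (17.6%) and 6 of the 10 S phase promoters (60.0%), against 6.81% of all. CHR and NF-Y matches occurred together in 11 of the 17 mitotic promoters, against 6.95% of all. A match is a description of the letters and was not tied to binding in these cells. The shares follow from which genes are listed and do not depend on the expression values.

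**Figure D3:**
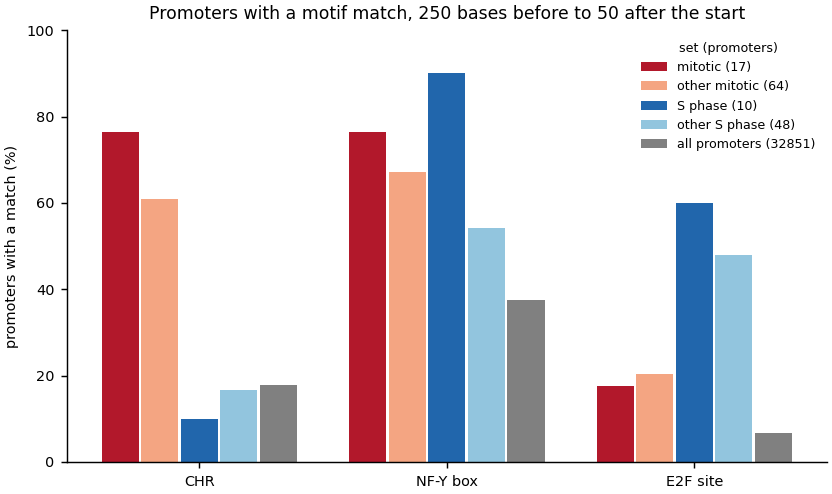
The share of promoters (y axis, percent) with a match to each of 3 elements, for mitotic and S phase members, other mitotic and other S phase genes, and all promoters. CHR matches are in 76.5% of mitotic and 10% of S phase members, and E2F matches in 17.6% of mitotic and 60.0% of S phase members.

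Further genes of the same pathways, listed by role, were compared in the same way. Of 66 other mitotic genes, 9 rose and none fell at an adjusted p under 0.1, and 33 were higher and 1 lower at an unadjusted p under 0.05 (median log2 fold change 0.18), beside 1.25% and 0.757% of all probe sets at the adjusted and 7.73% and 6.95% at the unadjusted threshold. The largest rises were those of Nek2, a centrosome kinase (0.46, adjusted p = 0.0568), and Anln, the cytokinesis protein anillin (0.46, adjusted p = 0.0669). Nek2 had 7.46, 7.56 and 7.62 in HDAC10-/- Treg and 7.21, 6.99 and 7.07 in WT Treg, and Anln had 8.07, 7.89 and 7.82 in HDAC10-/- Treg and 7.50, 7.37 and 7.53 in WT Treg. Separase (Espl1), the phosphatase gene Cdc25c, the condensin II gene Ncapg2, Shcbp1, the kinesin gene Kif18b, the spindle gene Tacc3 and the midzone gene Prc1 rose by 0.30 to 0.41 (adjusted p = 0.0568 to 0.0999). Pttg1, which encodes the separase inhibitor securin, was the gene that was lower (-0.16, adjusted p = 0.240). Without HDAC10-/- replicate 1 the count was also 9, of which 6 were among those named. The share of all probe sets was not computed for that fit. None of the 9 passed under every alternative (adjusted p up to 0.285).

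Of 54 other S phase genes, 2 rose, none fell and 15 were higher at an unadjusted p under 0.05 (median 0.093), beside the same 1.25%, 0.757% and 7.73% of all probe sets. The risen genes were Hells, a chromatin remodeller needed for DNA methylation, and Chaf1a, a subunit of the histone chaperone that follows the replication fork. Hells had 8.45, 8.39 and 8.19 in HDAC10-/- Treg and 7.91, 7.86 and 7.82 in WT Treg (0.48, standard error 0.081, adjusted p = 0.0529). Chaf1a had 7.79, 7.77 and 7.68 in HDAC10-/- Treg and 7.49, 7.43 and 7.48 in WT Treg (0.28, standard error 0.059, adjusted p = 0.0999). In both genes the groups were separate. Of 35 genes of G1 and quiescence control, 7 were higher and 1 lower at an unadjusted p under 0.05 (median 0.047), beside 7.73% and 6.95%. At the adjusted threshold, E2f7, the atypical partner of E2f8, rose (0.33, adjusted p = 0.0917), beside 1.25% of all probe sets. Tob1, an antiproliferative gene of resting T cells, fell, beside 0.757%. Tob1 had 8.95, 9.02 and 9.10 in HDAC10-/- Treg and 9.35, 9.42 and 9.40 in WT Treg (-0.37, standard error 0.063, adjusted p = 0.0566), and both groups were tight. Without HDAC10-/- replicate 1, Hells and Tob1 still passed, whereas E2f7 and Chaf1a did not. Of these 4 genes none passed under every alternative (adjusted p up to 0.189 for Hells, 0.199 for Tob1, 0.267 for E2f7 and 0.280 for Chaf1a). Of 15 p53 targets measured beside Cdkn1a none passed (median -0.047), beside 1.25% of all probe sets that rose and 0.757% that fell. The pair with the smallest p-values, Plk2 and Ei24, had -0.20 and -0.14. At an unadjusted p under 0.05 none was higher and 1, Plk2, was lower, beside 7.73% and 6.95%. Of the 15, 3 had a log2 fold change above 0.

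**Figure D4:**
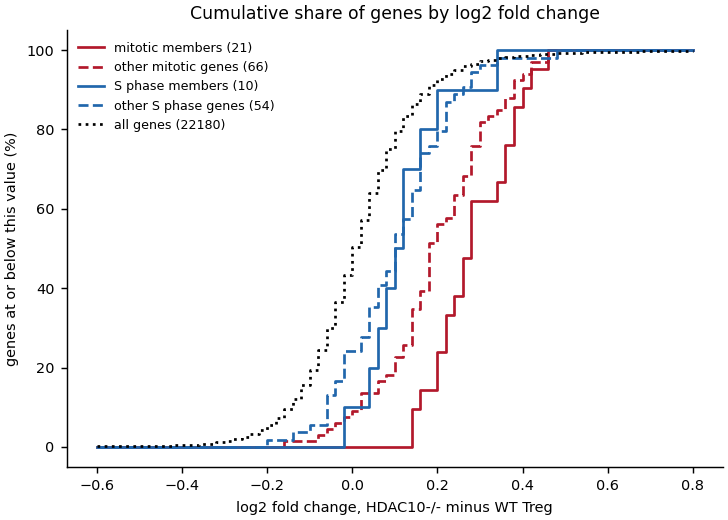
The cumulative share of genes (y axis, percent) by log2 fold change (x axis, HDAC10-/- minus WT) for the mitotic and S phase members, the other genes of each pathway and all 22180 genes. The median is 0.27 for mitotic members, 0.18 for other mitotic genes, 0.10 for S phase members and 0.093 for other S phase genes.

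Markers of several other cell types were also higher in HDAC10-/- Treg. At an adjusted p under 0.1, 10 of 14 macrophage and monocyte markers, 7 of 13 markers of neutrophils and their precursors, 5 of 10 B cell markers, 3 of 7 dendritic cell markers and 3 of 7 CD8 T and NK cell markers rose, and none fell, beside 1.25% and 0.757% of all probe sets. The summed linear signal of the neutrophil list was 1060 to 1330 in HDAC10-/- Treg and 674 to 706 in WT Treg, that of the macrophage list 2774 to 3078 in HDAC10-/- Treg and 1825 to 1912 in WT Treg, and that of the B cell list 3214 to 3759 in HDAC10-/- Treg and 2496 to 2682 in WT Treg. Dendritic cell markers summed to 1676 to 2077 in HDAC10-/- Treg and 1625 to 1731 in WT Treg, and CD8 T and NK cell markers to 4085 to 4866 in HDAC10-/- Treg and 4124 to 4170 in WT Treg, with overlap in both lists. Of the CD8 T and NK cell markers, Cd8a, Tyrobp and Ncr1 rose (log2 fold changes of 0.97, 0.57 and 0.31). Cd8b1, Nkg7, Klrb1c and Eomes did not pass (-0.05, -0.08, -0.23 and 0.057). Of the dendritic cell markers, Flt3, Itgax and Siglech rose (0.71, 0.66 and 0.63). Xcr1, Bst2, Zbtb46 and Cd209a did not pass (0.32, -0.13, 0.037 and -0.1). Of the granule genes of neutrophil precursors, Elane and Mpo rose (log2 fold changes of 0.64 and 0.49), whereas Ctsg and Prtn3 did not pass (0.29 and 0.063, adjusted p = 0.358 and 0.841), nor did the precursor factor Cebpe (0.15, adjusted p = 0.512). Without HDAC10-/- replicate 1, 8 macrophage, 6 neutrophil, 4 B cell, 3 dendritic cell and 2 CD8 T and NK cell markers rose, with Elane among them and Mpo not. For that fit the share of all probe sets was not computed. As for the mitotic genes, HDAC10-/- replicate 1 had the highest mean of the macrophage, neutrophil and B cell lists, at 0.89, 0.88 and 0.68 above WT. Among the WT arrays the order differed. WT replicate 1 had the highest WT mean of the mitotic genes (0.059). It had the lowest WT mean of the macrophage, neutrophil and B cell lists (-0.071, -0.061 and -0.063). No plasma cell (7), erythroid (5) or T cell and Treg marker (8) passed the test. At an unadjusted p under 0.05, the T cell markers Cd3d (-0.22) and Cd4 (-0.14) were lower, without overlap of the groups. None of the 8 was higher at that threshold. Of the plasma cell markers 2 were lower and 1 higher, and of the erythroid markers 1 was lower. Among all probe sets 6.95% were lower and 7.73% higher. The plasma cell list summed to 5059 to 5225 in HDAC10-/- Treg and 5276 to 5548 in WT Treg, the erythroid list to 991 to 1092 in HDAC10-/- Treg and 1033 to 1087 in WT Treg, and the T cell and Treg list to 34200 to 35262 in HDAC10-/- Treg and 35129 to 35464 in WT Treg. The table holds neither zeros nor detection calls, so that no marker can be called absent. The part of other cells in the mitotic difference was not tested.

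**Figure D5:**
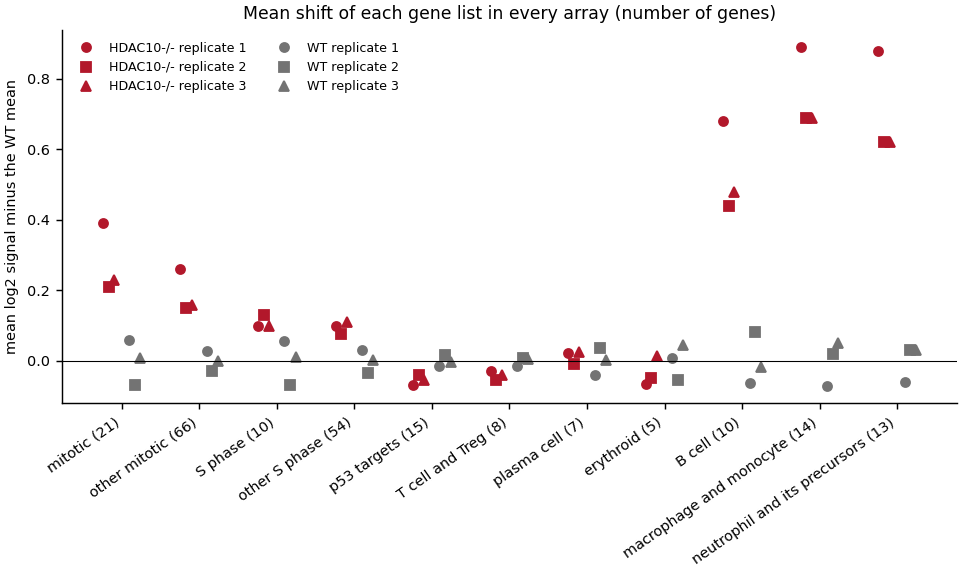
The mean log2 signal of each gene list minus its WT mean (y axis) in every array, with HDAC10-/- left of WT and replicates 1 to 3 as circles, squares and triangles. Mitotic genes, B cell, macrophage and neutrophil markers are high in the 3 HDAC10-/- arrays with replicate 1 on top, while S phase genes in HDAC10-/- Treg lie between 0.10 and 0.13.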

How the data were processed

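RNA of 6 samples was hybridised to Mouse Gene 2.0 ST arrays. The authors normalized the arrays with the robust multiarray average (Transcriptome Analysis Console, version 4.0) and deposited log2 signals of 34472 probe sets, which were used unchanged. Probe sets were named by the platform annotation, where 23521 have 1 gene symbol, 1820 several and 9131 none. The genotypes were compared across all probe sets with limma 3.58.1 in R 4.3.3, by lmFit and eBayes without trend or robust option, with Benjamini-Hochberg adjustment, and tested on simulated data. The methods' false discovery rate of 0.1 was the threshold. The members, role groups, wider lists and marker lists were chosen with earlier results of these data known. Values per array are given for called members, the 4 mitotic and 4 S phase genes with the smallest p-values, the lowest of each role group, Ccnd2, Ccnd3, Cdkn1a, Cdkn1b, E2f1 and E2f8; of wider lists, called genes are named. Alternatives were the methods' plain test, limma options, array weights, normalizations, probe set filters, thresholds, a replicate block and each array left out. Promoters are from a RefSeq table.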

Additional observations from a re-analysis of the deposited data

How the results depend on the processing

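The number of members called higher was 2 of 39, beside 1.25% of all probe sets. It was 15 with limma's intensity trend and robust option, beside 2.52%, and 15 on the probe sets above the median signal, beside 5.36%. It was 6 with array weights, and 4 with quantile normalization and on the probe sets with 1 symbol. The share of all probe sets called was not computed for those last settings, so these counts cannot be read against it. It was 0 with the 1.5-fold minimum and 0 with a replicate block. It lay between 0 (without WT replicate 1) and 2 when 1 array was left out. No member was called lower in any setting. The 20 members higher at an unadjusted p under 0.05 numbered 13 to 21 when 1 array was left out, with the fewest without WT replicate 3. The share of all probe sets was also not computed with an array left out or with the replicate block. The S phase median of 0.10 lay between 0.048 (without WT replicate 2) and 0.14. Pcna changed sign with quantile normalization (0.011) and without HDAC10-/- replicate 2 (0.0083), and lay between -0.097 and 0.0083 when 1 array was left out. Of 585 values of single members under the alternatives, 542 kept direction and side of the threshold, 34 came under an adjusted p of 0.1, 7 went above it and 2 changed sign. Arrays with the same replicate number were treated as unpaired in the main fit. Their deviations from the group means correlated at -0.0242 to 0.000632, and those of arrays with different numbers at -0.0353 to 0.0418. These correlations cannot exclude that samples were collected in pairs. With 3 arrays per genotype a small difference cannot be separated from the spread, and dim probe sets cannot be told from background without detection calls.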

Other observations

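Several probe sets are annotated to a member together with another gene and were therefore not used. Those shared with Tyms, Nusap1 and Ccne2 had log2 fold changes of 0.14, 0.18 and 0.24 (limma adjusted p = 0.523, 0.266 and 0.458), and the Mcm7 pair 0.10 and 0.12 (adjusted p = 0.680 and 0.641). A pair that also carries the symbol Top2a had -0.07 and 0.00 (adjusted p = 0.732 and 1), beside 0.40 for the probe set of Top2a alone. Which transcripts these shared probe sets detect was not analysed here. Rrm2 was the member with a further probe set of its own, and this dimmer one had -0.047 (adjusted p = 0.861), beside 0.11 for the brighter.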
